A study of Rattus norvegicus with 9 samples.

Results

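The genes described here load peptides onto MHC class I molecules or cut those peptides, and were chosen by their symbols in the deposited count table. The 10 symbols were B2m, Tap1, Tap2, Tapbp, Psmb8, Psmb9, Psmb10, Psme1, Psme2 and Nlrc5. Of these, 8 had a row among the 30507 rows of the table, and each of the 8 had 1 row only. The expression of Tapbp was not analysed here. No row carried the symbol Psme2, but a row with the symbol LOC100362709 (ENSRNOG00000019246) bore the NCBI gene ID that RefSeq gives to Psme2. That row is reported beside the 8 genes as the Psme2 row and is not counted among them.

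The data were RNA sequencing libraries of T9 to T11 spinal cord from wild-type female Sprague-Dawley rats, bought at 8 weeks of age and sampled 35 days after surgery, with 3 rats in each of 3 groups. Sham rats are labelled as normal and without treatment, and the study's methods give their surgery as a laminectomy alone. SCI rats had a contusion of the cord at T10 under a laminectomy, with a connector plug on the neck but no electrode. SCI + SCS rats had the same contusion, an epidural electrode, and stimulation at 10 kHz and 0.12 mA for 2 h per day from 1 day post-injury (dpi). Injured rats were kept in the study by their paw withdrawal threshold. Since the SCI group carried no electrode, the electrode and the current cannot be told apart in these comparisons.

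The libraries held between 62844376 and 88358570 counts. Markers of neurons and oligodendrocytes were detected in every library, at levels that differed between groups as given below. Skeletal muscle markers stood apart in SCI replicate 1, with a summed level of 4324 CPM (counts scaled to the size of the library), and in SCI replicate 3, with 1266 CPM. The other 7 libraries lay between 47.9 and 155 CPM. The 8 genes were tested with and without each of these libraries, as given below. The CPM levels of genes and marker lists are scaled with the TMM factors of the 9 libraries.

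MHC class I molecules show peptides from inside the cell to CD8 T cells. The proteasome cuts proteins into peptides, and interferon gamma replaces its constitutive catalytic subunits with the immunoproteasome subunits encoded by Psmb8, Psmb9 and Psmb10 and adds the PA28 activator of Psme1 and Psme2. The TAP1-TAP2 transporter carries the peptides into the endoplasmic reticulum, tapasin (Tapbp) helps to load them, and the heavy chain is held at the cell surface by beta-2 microglobulin (B2m). NLRC5 is the transactivator of class I genes, and in the healthy nervous system most cells show little class I.

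All 8 genes were higher in SCI than in Sham rats, by 2.31-fold for B2m and Tap2 at the low end and by 6.15-fold for Psmb9 at the high end, and all 8 passed edgeR's test, as 24.3% of all genes did. In the SCI + SCS group each of the 8 mean levels lay between the other two groups. The share of all genes with such a level is not given here. Between the SCI + SCS and SCI groups edgeR called none of the 8 lower, and 0% of all genes, while DESeq2 called all 8, and 6.90% of the genes it tested. The libraries of these groups did not overlap for any of the 8, nor for 13.9% of all genes in the same direction. Against the Sham group, edgeR called 7 of the 8 genes higher in the SCI + SCS group at an adjusted p under 0.05, and 16.2% of all genes. Nlrc5 missed that threshold with a 2.11-fold higher mean level, and DESeq2 called all 8, and 19.1% of the genes it tested.

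The promoters of these genes are shown because interferon-responsive genes are known to carry an interferon-stimulated response element (ISRE). RefSeq windows of 250 bases before to 50 bases after the transcript start (GRCr8 build) were found for 9 of the 10 symbols, and Nlrc5 had none. An ISRE core, spelled GAAA, any 2 bases and GAAA and searched on both strands, was found in 7 of the 9 windows and in 3.92% of all 33469 windows. The 7 were B2m, Tap1, Tap2, Tapbp, Psmb8, Psmb10 and Psme2. Psmb9 and Psme1 had no match, nor did the constitutive counterparts Psmb5, Psmb6 and Psmb7. An NF-kB site spelled GGGAC followed by TTTCC was found in the windows of B2m and Tap1, and in 0.111% of all windows. In the stretches below the capitals mark ISRE cores, and in B2m and Tap1 also the NF-kB site. Each is written 5′ to 3′ on the strand of the gene, and a run of the motif read on the other strand appears as its reverse complement (TTTC, any 2 bases and TTTC for the ISRE core).
B2m (chr3:129549160-129549222, plus strand): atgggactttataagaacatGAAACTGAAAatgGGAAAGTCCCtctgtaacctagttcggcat
Tap1 (chr20:4668569-4668684, minus strand): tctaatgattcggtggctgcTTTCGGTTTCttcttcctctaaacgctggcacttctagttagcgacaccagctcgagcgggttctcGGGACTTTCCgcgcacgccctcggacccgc
Tap2 (chr20:4652308-4652357, minus strand): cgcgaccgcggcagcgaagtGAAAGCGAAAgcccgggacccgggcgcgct
Psmb8 (chr20:4657006-4657055, minus strand): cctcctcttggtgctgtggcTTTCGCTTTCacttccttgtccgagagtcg
Psmb10 (chr19:50743280-50743385, minus strand): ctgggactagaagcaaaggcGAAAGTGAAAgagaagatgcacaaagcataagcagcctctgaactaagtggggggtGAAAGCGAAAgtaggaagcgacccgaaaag
Psme2 (chr15:33052775-33052824, minus strand): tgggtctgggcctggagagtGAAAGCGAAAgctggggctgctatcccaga

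The ISRE cores lay within 150 bases before the start, and the one in Psmb8 spanned the start itself. Psmb10 held 2 cores that do not overlap, with their first bases at -73 and -17 from the start. In Tapbp, whose sequence is not printed, the 2 cores overlapped each other. A gamma-activated site spelled TTCNNNGAA was found in Psmb8 only among the 9, against 8.87% of all windows. The Y box letters CCAAT were found in B2m, Psmb8 and Psmb9, against 37.5% of all windows. Of the constitutive counterparts, Psmb7 also held the Y box letters, and none held the gamma-activated or the NF-kB site. The windows of Tap1 and Psmb9, which are transcribed away from each other, share 44 bases. A match is a run of letters and no measurement of binding.

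**Figure D1:**
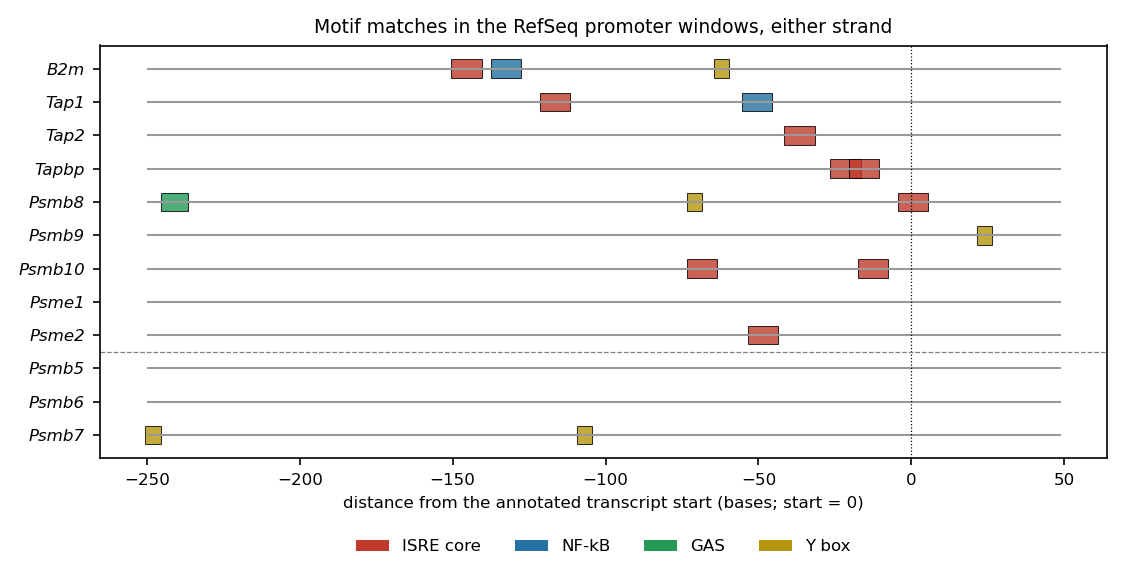
Motif matches in the promoter windows of 9 of the 10 genes (above the dashed line) and of 3 constitutive proteasome subunits (below it), plotted by distance in bases from the transcript start, which is counted as 0. Boxes are matches on either strand, coloured by motif. ISRE cores stand in 7 of the 9 upper windows and in none of the lower 3.

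Psmb9 and Psmb8 had the highest fold changes of the 8 genes. Differences between genes in fold change were not tested. Psmb8 encodes the subunit LMP7, which takes the place of Psmb5. It stood at 8.19, 8.85 and 18.2 CPM in the 3 Sham libraries, at 67.1, 76.0 and 64.1 CPM in the SCI libraries, and at 38.6, 21.8 and 38.9 CPM in the SCI + SCS libraries. The 3 groups did not overlap, and SCI + SCS replicate 2 was close to Sham replicate 3. The difference between SCI and Sham was a log2FC of 2.54 (SE 0.32, n = 3 per group), a 5.82-fold higher level with an adjusted p of 0.00206 in edgeR.

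Psmb9 encodes LMP2, which takes the place of Psmb6. Its levels were 4.197, 6.16 and 12.8 CPM in the Sham libraries, 50.4, 41.3 and 52.3 CPM in the SCI libraries, and 28.9, 19.9 and 30.6 CPM in the SCI + SCS libraries. Sham replicate 3 was again the highest of its group and SCI + SCS replicate 2 the lowest of its own. The log2FC of SCI against Sham was 2.62 (SE 0.40, adjusted p = 0.00323, edgeR). Psmb9 and Tap1 are read from opposite strands of chromosome 20 and share 856 bases in the files' coordinates (mRatBN7.2). Whether the counting used strand is not given in the sources used here, so that reads in this stretch cannot be told apart between both genes.

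Psmb10 encodes MECL-1, which takes the place of Psmb7. Its 3 Sham libraries lay at 26.8, 22.6 and 27.4 CPM, its SCI libraries at 66.9, 64.3 and 61.9 CPM, and its SCI + SCS libraries at 51.3, 46.9 and 51.4 CPM. These libraries were the tightest of the 3 immunosubunits within each group, with the highest at most 1.21 times the lowest. The log2FC between SCI and Sham was 1.31 (SE 0.11, adjusted p = 0.00107, edgeR). The Psmb10 row bears the NCBI gene ID that RefSeq gives to Ctrl, and its length implied by counts and FPKM varied 1.23-fold between libraries, against 1.04 to 1.08 for the other 7 genes. Whether reads of Ctrl enter the row was not tested, and this holds for each Psmb10 level, share and rank given here.

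Psme1 encodes the alpha subunit of PA28. Psme1 was at 43.8, 49.1 and 59.4 CPM in the Sham libraries, at 195, 173 and 183 CPM in the SCI libraries, and at 155, 125 and 130 CPM in the SCI + SCS libraries. All SCI libraries lay far above the Sham libraries, and the log2FC was 1.84 (SE 0.13, adjusted p = 0.000997, edgeR). The Psme2 row, for the beta subunit, stood at 35.2, 37.3 and 41.6 CPM in the Sham libraries. Its SCI libraries lay at 97.7, 89.5 and 98.6 CPM and its SCI + SCS libraries at 79.8, 64.3 and 66.8 CPM. Its log2FC for SCI against Sham was 1.31 (SE 0.10, adjusted p = 0.00103, edgeR). The Psme1 row overlaps its neighbour Emc9 by 8 bases, and PA28 genes have pseudogene copies that could share reads.

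The light chain and the transporter also rose, by 2.31-fold for B2m and Tap2 and by 3.63-fold for Tap1. B2m was the most abundant of the genes, at 457, 531 and 655 CPM in the Sham libraries, 1270, 1360 and 1201 CPM in the SCI libraries, and 1038, 1106 and 1058 CPM in the SCI + SCS libraries. Its log2FC for SCI against Sham was 1.21 (SE 0.16, adjusted p = 0.00225, edgeR). Tap1, whose protein forms one side of the peptide transporter, lay at 8.16, 10.1 and 14.9 CPM in the Sham libraries, 36.4, 43.1 and 42.0 CPM in the SCI libraries, and 28.6, 25.8 and 30.7 CPM in the SCI + SCS libraries. Its log2FC was 1.86 (SE 0.22, adjusted p = 0.00191, edgeR). Tap2, for the other side, lay at 18.7, 17.4 and 25.7 CPM in the Sham libraries, 47.6, 43.9 and 52.8 CPM in the SCI libraries, and 36.7, 27.4 and 32.7 CPM in the SCI + SCS libraries. SCI + SCS replicate 2 came close to Sham replicate 3 for Tap2. The log2FC of Tap2 for SCI against Sham was 1.21 (SE 0.16, adjusted p = 0.0024, edgeR).

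Nlrc5, the transactivator, was the least abundant. It was at 0.987, 3.02 and 2.76 CPM in the Sham libraries, which are 63, 266 and 240 counts, at 7.96, 8.64 and 6.96 CPM in the SCI libraries, and at 4.42, 4.11 and 5.77 CPM in the SCI + SCS libraries. Sham replicate 1 held less of it than the other two Sham libraries by a wide margin. The log2FC of SCI against Sham was 1.78 (SE 0.41), and the adjusted p of 0.0125 in edgeR was the highest of the 8.

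**Figure D2:**
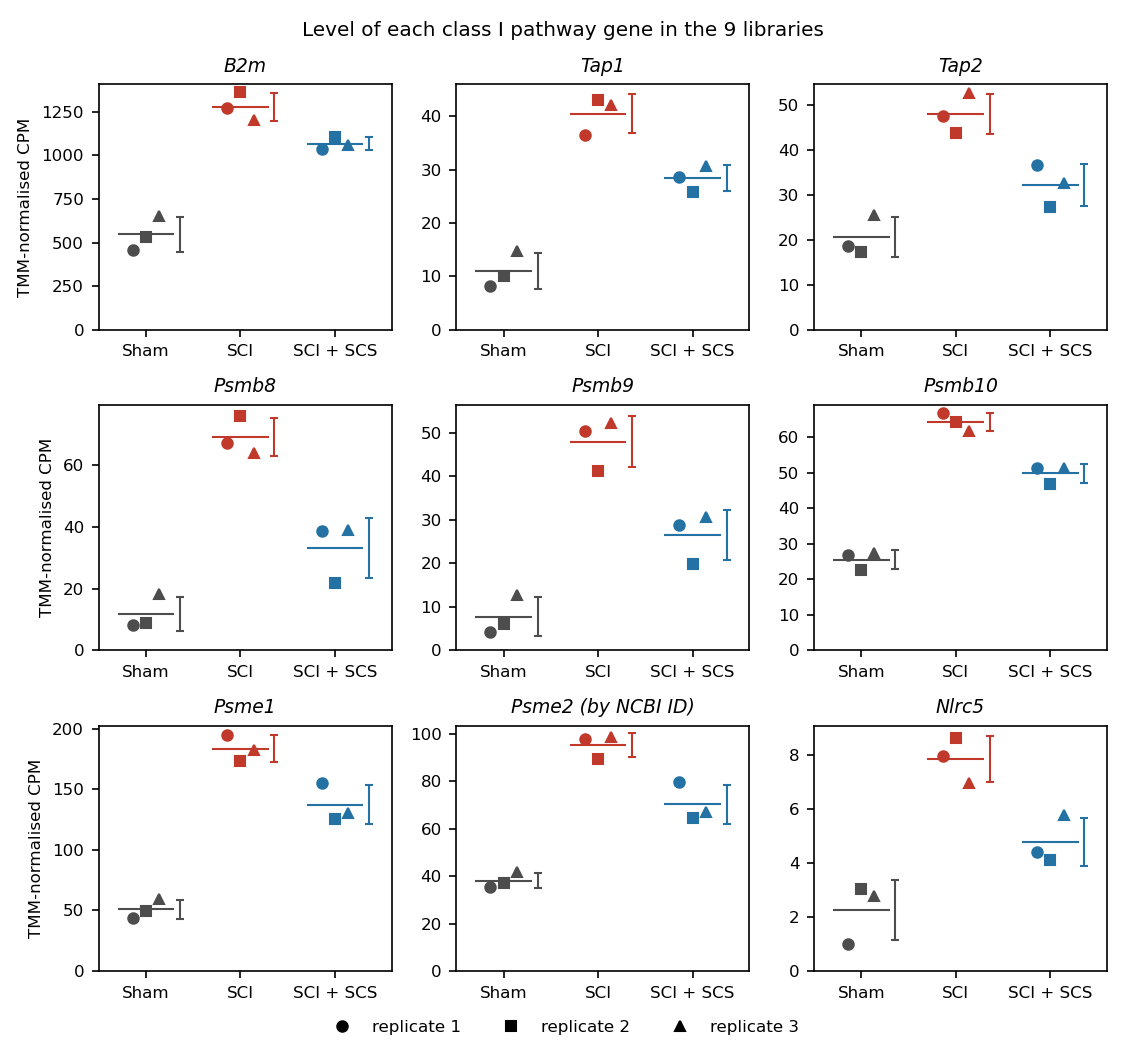
TMM-normalised CPM (y axes, from 0) of the 8 genes and of the Psme2 row in each library, by group. Symbols are single rats, horizontal lines are means and bars are the SD (n = 3). In each panel the 3 SCI libraries lie above the 3 SCI + SCS libraries, which lie above the 3 Sham libraries. The share of all genes in this order is not given here.

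In all, 8 of 8 genes were higher in SCI than in Sham rats at an adjusted p under 0.05, as were 24.3% of the 17822 genes tested, and all 8 had a log2FC above 1, as did 13.4% of the genes tested. The SCI and Sham libraries did not overlap for any of the 8, with SCI higher, and the same held for 32.5% of all genes. The median log2FC of the 8 was 1.81, beside 0.02 over all genes. All 8 remained called without SCI replicate 1 or SCI replicate 3, the libraries with muscle markers, and after leaving out any other library.

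Within Sham, replicate 3 was the highest library for 7 of the 8 genes and replicate 1 the lowest for 6. Summed microglia and macrophage markers (9 of 10 listed, none at 0) ran in the same order there, at 230, 279 and 378 CPM. So did T and NK cell, fibroblast, astrocyte, oligodendrocyte, Schwann cell, endothelial and adipocyte markers and the pan-leukocyte marker Ptprc. Neuron markers ran in the opposite order, and B and plasma cell and skeletal muscle markers in neither. SCI + SCS replicate 2 was the lowest of its group for 7 of the 8 genes. It was the highest for microglia and macrophage markers (1107 CPM), Ptprc (20.4 CPM) and T and NK cell markers (151 CPM). The same library was also the highest for oligodendrocyte, endothelial and skeletal muscle markers. For fibroblast, Schwann cell, adipocyte and B and plasma cell markers it was the lowest. For neuron and astrocyte markers it was neither. The microglia and macrophage sums lay between 1041 and 1370 CPM in SCI and between 934 and 1107 CPM in SCI + SCS rats. Not all of these markers moved together, since 6 of 9 tested were called higher in SCI against Sham (median log2FC 1.69, edgeR). In SCI + SCS against SCI 0 of 9 were called, with a median log2FC of -0.30. Ptprc, the pan-leukocyte marker CD45, lay between 3.84 and 9.81 CPM in Sham, between 22.1 and 31.4 CPM in SCI and between 18.6 and 20.4 CPM in SCI + SCS rats. Summed T and NK cell markers (11 of 12 listed) lay at 22.1 to 59.1, 141 to 202 and 115 to 151 CPM in the same order. Cd4, which macrophages of the rat also express, made up most of that sum, with means of 36.9 CPM in Sham, 135 CPM in SCI and 116 CPM in SCI + SCS rats. The median log2FC of the T and NK cell list was 2.82 for SCI against Sham (7 of 9 tested called higher) and -1.43 for SCI + SCS against SCI (0 of 10 called, edgeR). In the latter comparison Cd3e had a log2FC of -2.14 (adjusted p = 0.0904), Cd3g of -1.73 (adjusted p = 0.0959) and Cd8a of -0.71 (adjusted p = 0.157), against -0.22 for Cd4 (adjusted p = 0.551). Fibroblast markers, which lay at 408 to 1916 CPM in Sham, were at 3352 to 5063 CPM in SCI and at 2061 to 3503 CPM in SCI + SCS rats. Adipocyte markers (6 of 6 listed, with 1 at 0 in Sham, 1 in SCI and 2 in SCI + SCS rats) lay at 2.82 to 8.93, 86.9 to 115 and 26.6 to 42.8 CPM in the same order. Neuron markers moved the other way, at 3840 to 8183, 610 to 2048 and 1855 to 3049 CPM, with 10 of 10 called lower in SCI against Sham (median log2FC -2.20). Oligodendrocyte markers lay at 58273 to 82563, 17392 to 32929 and 30529 to 36145 CPM, with 6 of 8 called lower in SCI (median log2FC -1.16). In SCI + SCS against SCI the medians of these lists were 0.98 and 0.41, with 0 genes called in edgeR. Beside the counts of called markers, edgeR called 24.3% of all genes higher and 25.0% lower in SCI against Sham. In SCI + SCS against SCI it called 0% of all genes lower, and the share called higher is not given here. The part of these cell types in the result was not tested. In bulk tissue a change in the number of cells of a type and a change in RNA per cell cannot be told apart.

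The constitutive subunits that the immunosubunits replace did not pass the test. Psmb5 stood at a mean of 118 ± 12.98 CPM (SD, n = 3) in Sham, 127 ± 16.6 CPM in SCI and 120 ± 8.02 CPM in SCI + SCS rats. Psmb6 stood at 110 ± 12.4, 120 ± 16.6 and 112 ± 7.25 CPM, and Psmb7 at 163 ± 12.6, 170 ± 23.3 and 167 ± 3.71 CPM. The log2FC of SCI against Sham was 0.09 for Psmb5 (SE 0.14, adjusted p = 0.628), 0.11 for Psmb6 (SE 0.14, adjusted p = 0.552) and 0.03 for Psmb7 (SE 0.13, adjusted p = 0.841), all in edgeR. The SCI and Sham libraries overlapped for each of the 3.

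**Figure D3:**
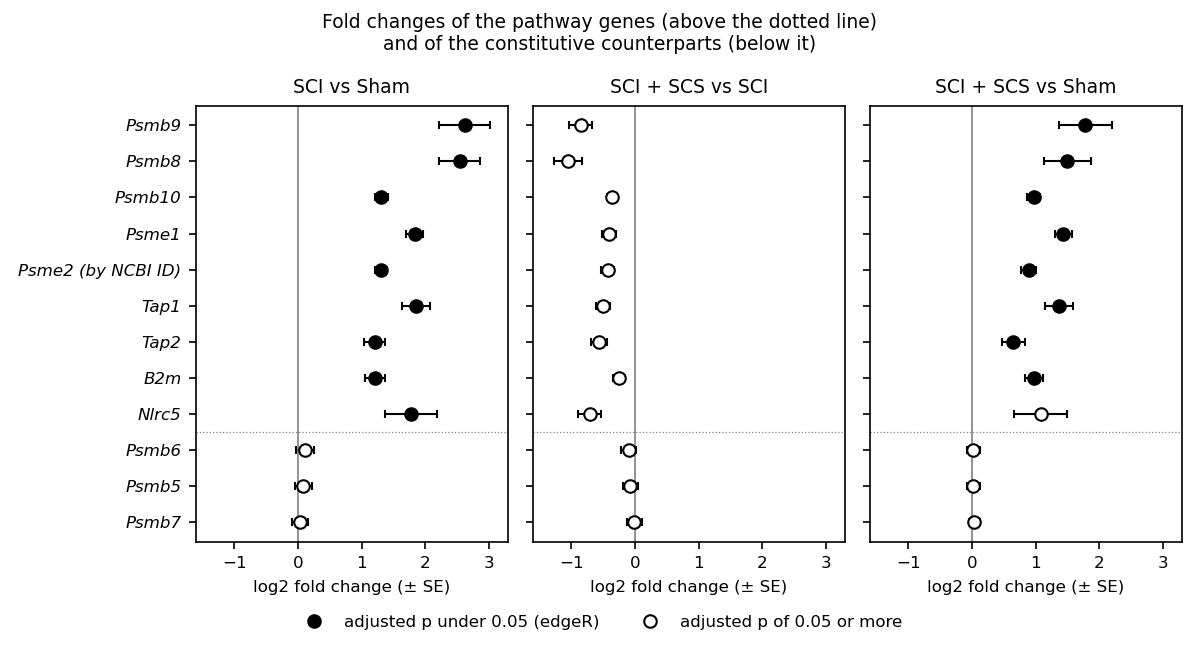
Log2 fold changes (x axis) with their SE from edgeR for the 8 genes and the Psme2 row (above the dotted line) and for the constitutive subunits Psmb6, Psmb5 and Psmb7 (below it), in 3 comparisons of 3 against 3 rats. Filled points passed an adjusted p of 0.05. The 3 constitutive subunits stay within 0.11 of 0 in each comparison.

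Levels of different genes were compared per length, in FPKM (counts scaled by gene length and library total). Psmb8 made up 4.44%, 5.79% and 11.2% of the summed FPKM of Psmb8 and Psmb5 in the Sham libraries, 27.0%, 35.0% and 26.7% in the SCI libraries, and 19.2%, 13.2% and 19.5% in the SCI + SCS libraries. The groups did not overlap. Psmb9 made up 5.75% ± 3.25 (SD, n = 3) of the sum of Psmb9 and Psmb6 in Sham, 25.3% ± 0.831 in SCI and 16.8% ± 2.41 in SCI + SCS rats. Psmb10 made up 10.5% ± 1.54 of the sum of Psmb10 and Psmb7 in Sham, 21.1% ± 1.80 in SCI and 17.3% ± 1.77 in SCI + SCS rats. The lowest SCI library held 19.17% Psmb10 and the highest SCI + SCS library 19.12%, so these groups were separated by less than the spread within either. For all 3 pairs and all 3 comparisons the exact two-sided permutation test gave p = 0.1, the smallest that 3 against 3 rats allow (0.115 after adjustment over 15 tests).

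**Figure D4:**
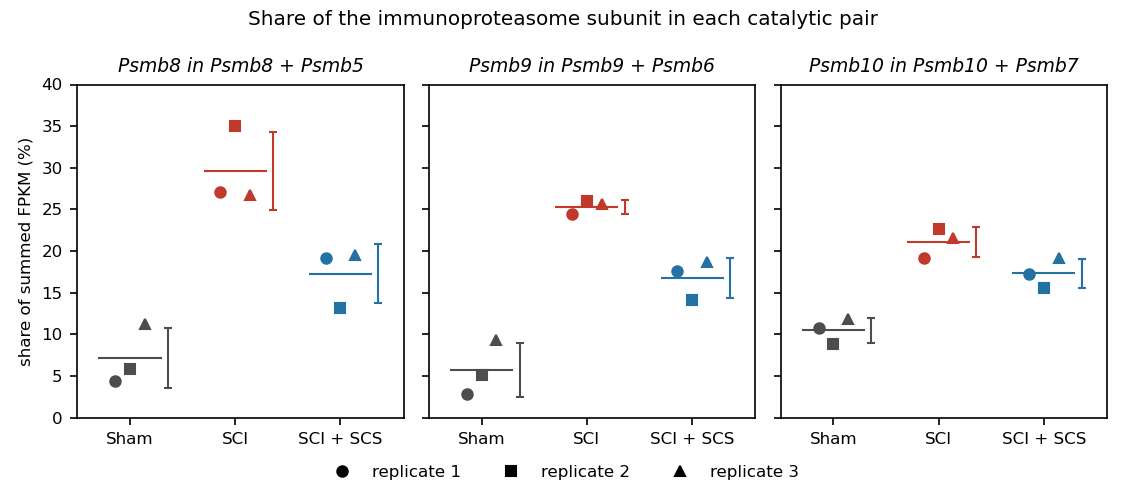
Share of the immunoproteasome subunit in the summed FPKM of each pair of catalytic subunits (y axis, percent) in each library. Symbols are single rats, lines are means and bars are the SD (n = 3). The Psmb8 share was 7.15% in Sham, 29.6% in SCI and 17.3% in SCI + SCS rats.

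The order of the 3 immunosubunits also differed between groups. In each Sham library Psmb10 had the highest FPKM of the 3, at 14.4, 10.6 and 14.3. In each SCI library Psmb8 had the highest FPKM, at 40.5, 53.4 and 44.6, followed by Psmb9 at 38.5, 37.2 and 44.4 and Psmb10 at 27.8, 30.5 and 34.1. In the SCI + SCS libraries the order was mixed, with Psmb10 highest in replicates 2 and 3. In SCI replicates 1 and 3, Psmb8 and Psmb9 differed by less than the spread between replicates. So did the 3 immunosubunits in SCI + SCS replicates 1 and 3.

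Another 2 pairs compared partners that work together. Tap1 stood at 0.440 ± 0.0688 of the FPKM of Tap2 (SD, n = 3) in Sham, at 0.701 ± 0.0969 in SCI and at 0.734 ± 0.0760 in SCI + SCS rats. The Psme2 row stood at 0.592 ± 0.0415 of Psme1 in Sham, 0.408 ± 0.0140 in SCI and 0.404 ± 0.00165 in SCI + SCS rats. Both pairs were separated without overlap between Sham and each injured group (exact permutation p = 0.1, the smallest possible, adjusted 0.115). The SCI and SCI + SCS groups overlapped for both, with exact permutation p = 0.9 for Tap1 against Tap2 and p = 0.7 for the Psme2 row against Psme1. Reads in the stretch shared with Psmb9 may enter the Tap1 level.

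In the SCI + SCS group the levels were lower than in the SCI group by 1.19-fold for B2m to 2.07-fold for Psmb8, without a call at the adjusted threshold. The log2FC was -1.05 for Psmb8 (SE 0.22, adjusted p = 0.0826), -0.85 for Psmb9 (SE 0.18, adjusted p = 0.0826) and -0.71 for Nlrc5 (SE 0.18, adjusted p = 0.0979) in edgeR. It was -0.57 for Tap2 (SE 0.13, adjusted p = 0.0869), -0.50 for Tap1 (SE 0.10, adjusted p = 0.0817) and -0.41 for Psme1 (SE 0.11, adjusted p = 0.0998). For Psmb10 it was -0.36 (SE 0.08, adjusted p = 0.0857) and for B2m -0.25 (SE 0.10, adjusted p = 0.186). The Psme2 row had a log2FC of -0.43 (SE 0.11, adjusted p = 0.0931).

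By edgeR, 0 of the 8 genes were lower in the SCI + SCS group at an adjusted p under 0.05, and 0% of the 17663 genes tested were. At an unadjusted p under 0.05 all 8 were lower, as were 10.9% of all genes. DESeq2, the tool of the study, called all 8 lower at an adjusted p under 0.05, and 6.90% of the genes it tested. With the study's further demand of |log2FC|>1 it called 1 of the 8, Psmb8, and 2.14% of the genes it tested. Fitted to all 9 libraries at once, DESeq2 called 4 of the 8 lower (Tap2, Psmb8, Psmb10 and Psme1) and 3.66% of all genes. The SCI + SCS and SCI libraries did not overlap for any of the 8, with SCI + SCS lower, as for 13.9% of all genes. The median log2FC was -0.54, beside -0.01 over all genes. SCI + SCS replicate 2 was the lowest library of its group for 7 of the 8 genes, and without it the log2FC of Psmb8 was -0.82.

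Against the Sham group, 7 of the 8 genes were higher in the SCI + SCS group at an adjusted p under 0.05 in edgeR, as were 16.2% of the 17640 genes tested. With a log2FC above 1 they were 4 (Psmb8, Psmb9, Tap1 and Psme1), against 6.28% of the genes tested. The log2FC was 1.78 for Psmb9 (SE 0.42, adjusted p = 0.0219), 1.499 for Psmb8 (SE 0.37, adjusted p = 0.0265), 1.44 for Psme1 (SE 0.14, adjusted p = 0.00336) and 1.37 for Tap1 (SE 0.22, adjusted p = 0.00857). It was 0.97 for B2m (SE 0.14, adjusted p = 0.00672), 0.97 for Psmb10 (SE 0.10, adjusted p = 0.00360) and 0.65 for Tap2 (SE 0.18, adjusted p = 0.0351). Nlrc5 had a log2FC of 1.08 (SE 0.41, adjusted p = 0.0877) and the Psme2 row of 0.89 (SE 0.11, adjusted p = 0.00501). The libraries did not overlap for any of the 8, as for 27.0% of all genes. The number of genes called fell to 4 without Sham replicate 2, without SCI + SCS replicate 1 and without SCI + SCS replicate 3. Those fits have fewer rats, and the share of all genes called in them is not given here. This comparison shares its Sham libraries with the first and its SCI + SCS libraries with the second.

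Among 17 other genes of peptide loading and trimming, 16 were tested, and 7 were higher and 2 lower in SCI than in Sham rats in edgeR, beside 24.3% of all genes higher and 25.0% lower. The higher genes included 3 parts of the Sec61 channel, through which proteins enter the endoplasmic reticulum. Their log2FC was 0.94 for Sec61a1 (adjusted p = 0.00458), 1.22 for Sec61b (adjusted p = 0.00174) and 1.23 for Sec61g (adjusted p = 0.00202). The chaperone Calr rose with a log2FC of 0.53 (adjusted p = 0.00814) and the disulfide isomerase Pdia3 of the loading complex with a log2FC of 0.69 (adjusted p = 0.00301). The trimming peptidase Erap1 rose with a log2FC of 0.79 (adjusted p = 0.0401), and the cytosolic peptidase Lap3 with a log2FC of 0.58 (adjusted p = 0.0133). The chaperone Canx fell with a log2FC of -0.61 (adjusted p = 0.00602) and the peptidase Npepps with a log2FC of -0.94 (adjusted p = 0.00143). The median of the list was 0.05.

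Of the 14 genes of the constitutive 20S proteasome 3 were higher in the SCI group and none lower, with a median log2FC of 0.23, beside 24.3% of all genes higher and 25.0% lower, so the share of higher genes was close to that of all genes. These were Psmb2 with a log2FC of 0.61, Psmb3 with 0.68 and Psma6 with 0.41 (adjusted p = 0.00321, 0.0128 and 0.0321, edgeR). Of 25 genes of the 19S regulator, other activators and assembly factors, 24 were tested, 2 were higher and 7 lower, with a median log2FC of -0.08, and the share of lower genes was again close to that of all genes. The higher were the activator Psme4, with a log2FC of 0.65 (adjusted p = 0.0148), and the assembly chaperone Psmg4, with a log2FC of 1.16 (adjusted p = 0.00221). The 7 lower genes were Psmc1, Psmc5, Psmc6, Psmd1, Psmd3, Psmd12 and Psmd14, all of the 19S regulator, with log2FC between -0.94 for Psmc5 and -0.37 for Psmd3. The median log2FC of the 4 immunoproteasome and PA28 genes, beside these, was 2.19.

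Among 21 regulators of class I genes and of interferon gamma signaling, 19 were tested, 12 were higher and 1 lower in the SCI group, beside 24.3% of all genes higher and 25.0% lower. Irf1, a transcription factor that binds the ISRE, stood at 6.97, 8.79 and 12.8 CPM in the Sham libraries, 27.0, 27.5 and 29.8 CPM in the SCI libraries, and 21.6, 19.02 and 19.5 CPM in the SCI + SCS libraries. Its log2FC for SCI against Sham was 1.55 (SE 0.22, adjusted p = 0.00268, edgeR), and for SCI + SCS against SCI -0.48 (SE 0.09, adjusted p = 0.0774). Irf8, a transcription factor of the same family, rose with a log2FC of 1.89 (adjusted p = 0.00430). The receptor chains Ifngr1 and Ifngr2 rose with log2FC of 0.92 (adjusted p = 0.00197) and 0.96 (adjusted p = 0.00137). The feedback inhibitor Socs1 rose with a log2FC of 1.27 (adjusted p = 0.0121), and Stat2, Irf2, Nfya, Nfyc, Rfxank and Atf1 rose as well. Creb1 was the lower gene, with a log2FC of -0.50 (adjusted p = 0.0462).

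Interferon gamma itself was hardly seen at this depth. Ifng had 0 counts in 8 of the 9 libraries and 5 counts in SCI replicate 2. Over the plain library totals, without TMM factors, 3 counts were between 0.0340 and 0.0477 CPM, so that levels under this limit were not detectable. Rfx5, which binds class I promoters together with NLRC5, had a mean of 34.1 ± 2.77 CPM in the Sham group and 29.2 ± 1.67 CPM in the SCI group (SD, n = 3). In the SCI + SCS group the mean of Rfx5 was 32.3 ± 0.632 CPM. Rfx5 was not called in SCI against Sham, with a log2FC of -0.24 (SE 0.10, adjusted p = 0.0993, edgeR). Ciita, the class II transactivator and a relative of Nlrc5, stood at 0.219, 0.681 and 1.59 CPM in the Sham libraries, 2.84, 4.16 and 2.32 CPM in the SCI libraries, and 1.11, 0.808 and 2.02 CPM in the SCI + SCS libraries. Its log2FC for SCI against Sham was 1.88 (SE 0.66, adjusted p = 0.0517, edgeR).

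Between the SCI + SCS and SCI groups edgeR called 0 genes of these 3 lists and of the regulators. At an unadjusted p under 0.05, 2 of the 16 other loading and trimming genes, 1 of the 14 constitutive 20S genes, 1 of the 24 genes of the 19S list and 5 of the 19 regulators were lower, beside 10.9% of all genes. The regulators included Irf1, Socs1, Atf1 and Ciita. DESeq2 called 3 of the regulators lower, Irf1, Atf1 and Ciita, together with Sec61b, beside 6.90% of the genes it tested. It called Npepps higher, beside 8.83% of the genes it tested.

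**Figure D5:**
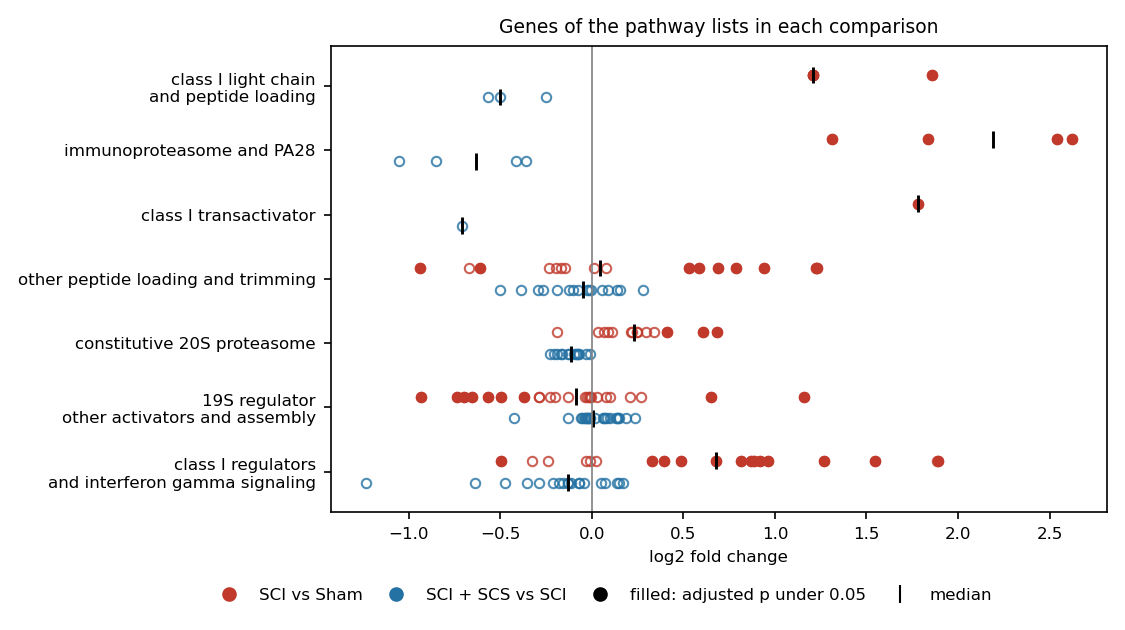
Log2 fold changes (x axis) of the single genes of each list in the comparisons of SCI against Sham (red) and SCI + SCS against SCI (blue). Filled points passed an adjusted p of 0.05 in edgeR, and black bars are the medians of the lists. The immunoproteasome and PA28 genes have medians of 2.19 and -0.63, and the constitutive 20S genes of 0.23 and -0.11.

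The class I heavy chains carry RT1 symbols in the rat. They form a family of near-identical copies that differ between strains, so reads can be split among rows and their values are uncertain. Of 19 rows with class I RT1 symbols, 16 were tested, and 8 were higher and none lower in the SCI group, beside 24.3% of all genes higher and 25.0% lower. Of the 6 rows with the highest mean level, those called were 2 of the rows of RT1-O1l1 with means of 19.7 and 10.996 CPM in the Sham group and 60.8 and 30.8 CPM in the SCI group, RT1-M3-1 with 14.1 and 22.3 CPM, and RT1-N3 with 9.92 and 16.8 CPM. RT1-T24-1 stood at 15.5 and 29.4 CPM (adjusted p = 0.0510). A row of RT1-CE16 was highest in mean level but varied most within groups, at 92.9, 27.3 and 20.03 CPM in the Sham libraries and 164, 25.5 and 187 CPM in the SCI libraries. Between the SCI + SCS and SCI groups 0 of 15 rows were called by edgeR, as 0% of all genes were called lower. At an unadjusted p under 0.05, 2 rows were lower, beside 10.9% of all genes, and DESeq2 called 1 row lower, beside 6.90%.

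The genes whose pattern was most like that of the 8 were found by Pearson correlation with their mean z-score over the 9 libraries, among 18077 genes. The 9 libraries share the 3 groups, so r is high for any gene ordered Sham, SCI + SCS, SCI. The closest were Slc50a1 (r = 0.999), Zfp277 (r = 0.995), Pa2g4 (r = 0.994), Calhm2 (r = 0.993), Sp110 (r = 0.992), Ppp1r13l (r = 0.992) and Irf1 (r = 0.992). ENSRNOG00000070105, which has no symbol, Frrs1 and Fabp5 followed, each with r = 0.992. Slc50a1 had mean levels of 17.9 CPM in Sham, 39.0 CPM in SCI and 29.2 CPM in SCI + SCS rats, and Sp110, a nuclear body protein, of 9.24, 38.9 and 27.4 CPM.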

How the data were processed

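Female rats gave 1 library each, and libraries were grouped by the title in the labels. The authors deposited raw counts of reads per gene, which carry no normalization, and FPKM values, which the authors scaled by the length of the gene and by the library. The submitters' processing notes name fastp 0.23.2, HISAT2 2.2.1 and the build mRatBN7.2, and the counting program is not given in the sources used here. The labels name oligo(dT) selection of mRNA and a single batch.

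From the counts, groups were compared with the quasi-likelihood test of edgeR 4.0.16 (R 4.3.3; TMM, filterByExpr, the 6 libraries compared, no covariate), with Benjamini-Hochberg adjustment over all genes tested. The study used DESeq2 with an adjusted p under 0.05 and |log2FC|>1, and DESeq2 1.42.0 was the first alternative. The SE is the size of the log2FC divided by the square root of F. FPKM ratios were compared with an exact two-sided permutation test over rats. In an alternative, limma 3.58.1 was run on log2(FPKM + 1) and on log2(FPKM + 0.1), where the mean FPKM reached 0.1, a scale that understates changes of low genes. The other alternatives were no filter, a minimum of 10 counts in each library, size factors of DESeq2, a fit of all 9 libraries, the replicate block, a table without muscle and adipocyte genes, summed rows of an identifier, and leaving out each library. DESeq2 on all 9 libraries was added after seeing the data. The tests were tested on simulated data.

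The 10 symbols, the pathway lists and the marker lists were chosen with earlier results of these data known. Named genes were the members, list genes past the threshold or partners of a member, the 6 class I RT1 rows with the highest mean CPM, and the 10 genes most like the members. A gene of the lists that this rule selects is left out of the text. A level of 3 counts was taken as the floor. This floor covers counting error only, since reads amplified by PCR and not tagged by molecule are not independent. Promoters were read from a RefSeq table of the GRCr8 build, whose coordinates differ from those of the files.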

Additional observations from a re-analysis of the deposited data

How the results depend on the processing

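In SCI against Sham, 8 of 8 genes were called under the main test and all 17 alternatives. In SCI + SCS against SCI the count was 0 in edgeR and limma under every alternative and any library left out, 8 with DESeq2 (1 with |log2FC|>1) and 4 with DESeq2 on all 9 libraries (also 1 with |log2FC|>1). The pathway lists without the members had 0 calls there in edgeR, 5 with DESeq2 and 3 with DESeq2 on all 9 libraries. The cause was not tested. In SCI + SCS against Sham, leaving out 1 library gave between 4 and 7 calls among the 8, between 2 and 6 with |log2FC|>1, and between 12 and 33 of the list genes (main values 7, 4 and 29). Tap2, Psmb8 and Psmb9 lost the call most often, with fewer rats in those fits.

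With the replicate number as a block, 4 of the 8 genes were called in SCI + SCS against Sham, 2 of them with |log2FC|>1, and 7 list genes. The counts for the 8 genes stayed at 8 in SCI against Sham and 0 in SCI + SCS against SCI. The share of all genes called is not given here for the block or for the fits without a library. The lower counts therefore cannot be read as particular to the 8 genes. Libraries of 1 number are from separate rats. Their deviations from the mean of the group correlated with r = 0.27, -0.04 and 0.23 in SCI against Sham, -0.19, 0.01 and -0.23 in SCI + SCS against SCI, and -0.36, 0.03 and -0.34 in SCI + SCS against Sham, so the numbers do not pair the rats.

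Of the FPKM ratios, the Psme2 row over Psme1 in SCI + SCS against SCI had a log2 difference of -0.017, and between -0.038 and 0.010 with 1 library left out, reversing at 0.010 without SCI replicate 3. The planned ratio of Psme1 to Psme3 was not run. With 3 rats per group the exact test cannot pass 0.1, so its p says nothing about stability.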
